A study of Mus musculus with 64 samples.

Results

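The Cyp2 family comprised 49 protein-coding mouse genes, chosen as all those whose symbol starts with Cyp2 followed by a letter, out of the 55573 genes of the count table that held the liver libraries. All 49 were listed there. In liver, 40 had at least 1 count, 30 passed the filter on low counts (more than 20 normalized counts in at least 3 mice of a group) and were tested among 12273 genes, 10 were counted below this filter, and 9 had no count. The libraries came from the livers of 20 adult male mice aged 10 to 18 weeks, all F1 offspring of a WT C57BL/6J male and a 129sv female with Ube3a m+/p-, with 5 mice in each group. The groups were WT or AS mice (Ube3a m-/p+, with the tm1Alb deletion on the maternal allele) that carried either a pellet releasing 20 mg of corticosterone (CORT) in cholesterol or a vehicle pellet of cholesterol for 5 days. The paternal Ube3a allele was intact in AS mice, and it is silent in neurons but active in liver. The deletion was present in every tissue and the pellet acted on the whole animal, so effects on hepatocytes and effects through other organs cannot be told apart.

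Cyp2 enzymes are haem-containing monooxygenases of the endoplasmic reticulum that insert an oxygen atom into drugs, steroids, fatty acids and retinoids, with electrons delivered by cytochrome P450 oxidoreductase. Hepatocytes are the main site of these enzymes, and most of them lie in the pericentral zone of the lobule. Tandem duplication has produced many more Cyp2 genes in mice than in humans, several of them differ in level between the sexes through the pattern of growth hormone release, and others respond to the xenobiotic receptors CAR and PXR. The family is clustered in the genome: the Cyp2a, Cyp2b, Cyp2f, Cyp2g, Cyp2s and Cyp2t genes lie together on chromosome 7, the Cyp2c genes on chromosome 19, the Cyp2d genes on chromosome 15 and the Cyp2j genes on chromosome 4.

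The depth was even, with 18612550 to 20868924 counts on genes per liver, so that 3 counts corresponded to 0.144 to 0.160 CPM (counts scaled to a common library size, TMM-normalized), a floor that covers counting error only. Ube3a stood at 48.3 ± 4.95 (vehicle) and 48.8 ± 4.01 (CORT) CPM in WT mice, and at 33.0 ± 4.04 (vehicle) and 34.8 ± 1.92 (CORT) CPM in AS mice (mean ± SD, n = 5), and was lower in AS mice with vehicle (log2 -0.55, adjusted p = 0.0191) and with CORT (-0.48, adjusted p = 0.0133). Alb reached at least 68668 CPM in every library, while the neuronal genes Snap25, Slc17a7 and Gad1 stayed at or below 0.981 CPM and the fourth neuronal gene, Syt1, stood at 3.94 to 27.1 CPM. A set of 6 libraries (L1 and L4 of WT vehicle, L3 of WT CORT, L2 of AS vehicle, L7 and L8 of AS CORT) lay apart from the other 14 on the leading axis of variation that the groups did not explain, and counts of called members are given with and without them.

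Some markers of other liver cells moved with CORT. Of all genes tested, 8.73% rose and 9.90% fell in WT mice, and 12.6% rose and 15% fell in AS mice. The marker lists were not tested against these shares. Of 8 macrophage and Kupffer cell markers, 7 fell in each genotype, and their summed level went from 145 to 197 CPM to 74.2 to 109 CPM in WT mice and from 197 to 276 CPM to 76.2 to 109.9 CPM in AS mice. Of 6 endothelial markers, 2 fell in WT and 4 in AS mice, with sums of 126 to 205 CPM against 112 to 186 CPM and of 157 to 229 CPM against 119 to 176 CPM. Stellate markers fell for 1 of 6 in WT and 3 of 6 in AS mice, the tested lymphocyte marker Cd79a fell in both, blood markers fell for 2 of 4 in WT and 4 of 4 in AS mice, and cholangiocyte markers fell for 0 of 3 tested in WT and 1 of 3 in AS mice. Of 8 hepatocyte markers, 0 passed in WT mice and 5 rose in AS mice, with sums of 95684 to 106063 CPM against 98501 to 115870.0 CPM in WT and 92397 to 125516 CPM against 116317 to 139742 CPM in AS mice. The single tested neuronal marker, Syt1, fell in both genotypes. Reads that aligned nowhere made up 5.39% to 8.93% of reads in WT vehicle, 3.198% to 4.77% in WT CORT, 4.52% to 6.68% in AS vehicle and 1.49% to 3.23% in AS CORT libraries. The part of these shifts in the member results was not tested, and in bulk RNA fewer cells of a type and less RNA per cell cannot be told apart.

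Levels of the members spanned several orders of magnitude in the liver of WT vehicle mice. On the scale of RPKM (CPM per kilobase of exon), Cyp2e1, the ethanol- and paracetamol-oxidizing enzyme, led with 3061 ± 991 (mean ± SD, n = 5). Cyp2f2, which activates naphthalene, followed at 861 ± 41.9 RPKM. The next levels were those of Cyp2d9, the testosterone hydroxylase of male liver, at 525 ± 42.6, Cyp2d26 at 516 ± 53.0, Cyp2d10 at 416 ± 30.4 and Cyp2c29 at 401 ± 67.4 RPKM. The ranges of Cyp2d9 and Cyp2d26 overlapped, as did those of Cyp2d10 and Cyp2c29. At the low end of the tested members stood Cyp2b10 at 0.831 ± 0.262, Cyp2c40 at 0.230 ± 0.118, Cyp2a22 at 0.163 ± 0.0573 and Cyp2c69 at 0.0707 ± 0.0466 RPKM. The highest member of each other subfamily was Cyp2a5 at 187 ± 175, Cyp2j5 at 277 ± 32.5, Cyp2u1 at 10.0 ± 2.21 and Cyp2r1 at 8.16 ± 0.970 RPKM. The lead of Cyp2a5 rested on L1 and L4, libraries that lay apart, and Cyp2a12, at 167 ± 14.9 RPKM, was higher in the other 3 mice. With vehicle in AS mice, Cyp2a12 stood at 167 ± 7.28 and Cyp2a5 at 97.6 ± 100.0 RPKM.

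**Figure D1:**
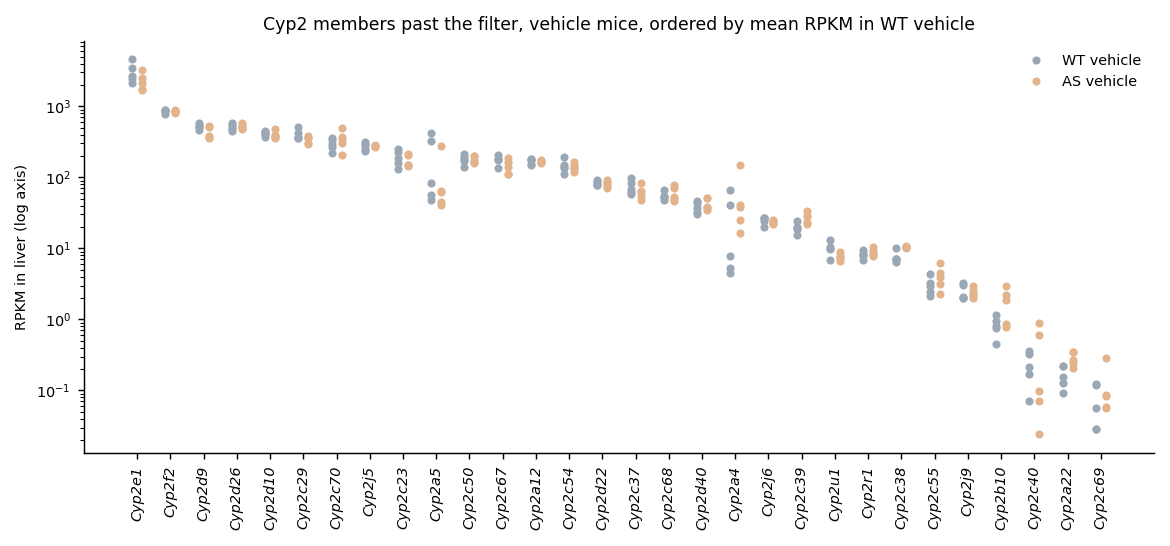
RPKM (log axis) in the liver of each vehicle mouse for the 30 members that passed the filter, ordered by mean level in WT vehicle mice. Each point is a mouse, 5 in each genotype, and the levels run from Cyp2e1 at the top to Cyp2c69 at the bottom.

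The members below the filter had 2 to 285 counts over all 20 livers. They were Cyp2ab1, Cyp2b9, Cyp2b13, Cyp2c65, Cyp2d11, Cyp2d12, Cyp2d34, Cyp2g1, Cyp2j8 and Cyp2s1, with Cyp2b9 highest. Cyp2b19, Cyp2b23, Cyp2c66, Cyp2j7, Cyp2j11, Cyp2j12, Cyp2j13, Cyp2t4 and Cyp2w1 had no count in any liver, which allows up to 3 counts a library. Reads without a unique alignment, 6.71% to 8.44% of reads per liver, were counted for no gene. Close copies could thus be under-counted, in CPM and in RPKM. Of the 49 members, 30 shared at least 1 stretch of 100 bases with another gene, and 8 shared over 10% of their windows, led by Cyp2c69 with 35.4%, Cyp2c40 with 34.4%, Cyp2c67 with 23.7% and Cyp2c68 with 19.8%. These windows stand for single reads. The study sequenced both ends of each fragment, so a mate elsewhere may place some of these reads, and the shares are upper guides. Cyp2u1, Cyp2f2, Cyp2s1, Cyp2c55, Cyp2t4 and Cyp2a4 overlap a gene on the opposite strand, and whether counting used strand was not given in the sources used here.

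CORT changed 15 of the 30 tested members in WT liver and 17 in AS liver at an adjusted p below 0.05 (edgeR quasi-likelihood test, adjusted over all 12273 genes). In WT mice 11 members rose, 36.7% of those tested, against 8.73% of all genes, and 4 fell, 13.3%, against 9.90% of all genes. In AS mice 14 rose, 46.7%, against 12.6%, and 3 fell, 10.0%, against 15%. The share of members that rose exceeded that of all genes in each genotype, and the share that fell was near it, as a description with no test of the list. In both genotypes 10 members rose, with 6.22% of all genes doing so, namely Cyp2a12, Cyp2b10, Cyp2c38, Cyp2c39, Cyp2c40, Cyp2c68, Cyp2c69, Cyp2d10, Cyp2d40 and Cyp2f2. Cyp2c23, Cyp2c55 and Cyp2u1 fell in both, 3 members, with 7.42% of all genes falling in both. The median log2 change over the tested members was 0.22 in WT and 0.24 in AS mice, against -0.0047 and -0.0032 over all genes tested. Without the 6 libraries that lay apart, 16 members were called in WT mice and 15 in AS mice.

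**Figure D2:**
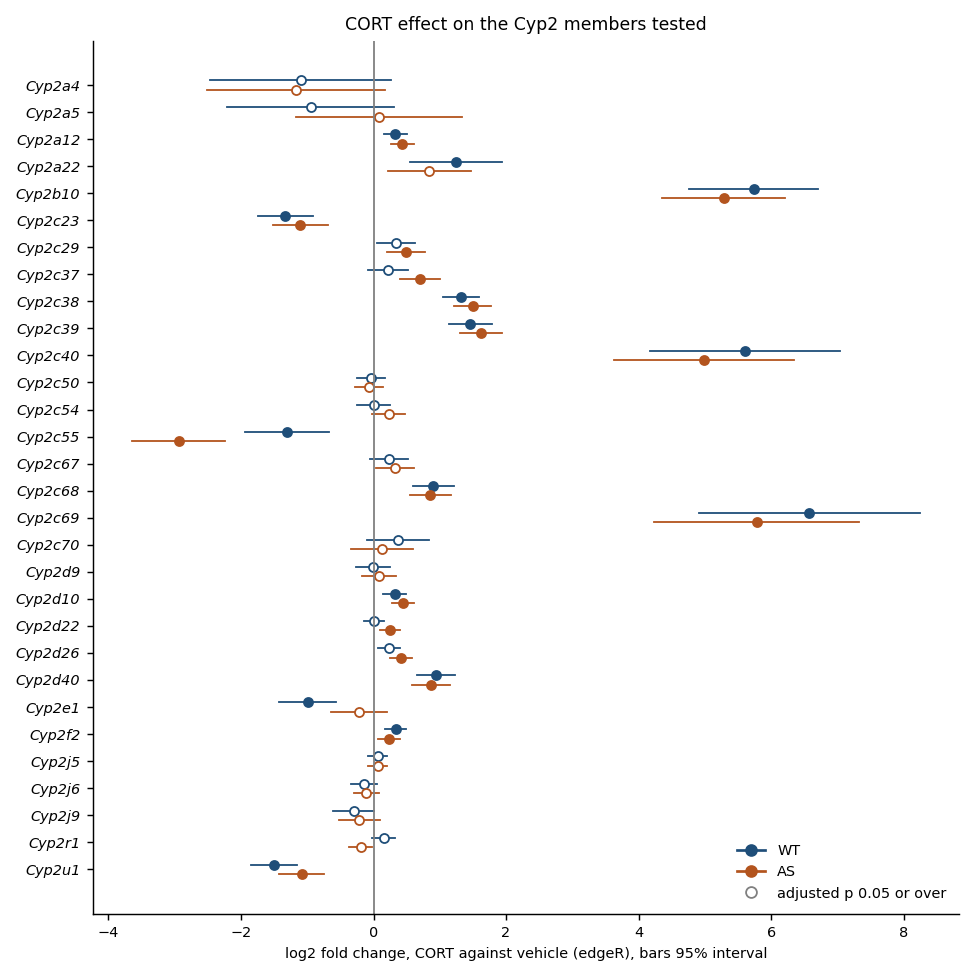
Effect of CORT against vehicle, as log2 fold change, for the 30 tested members, in WT and AS mice, with bars of 1.96 standard errors. Filled points have an adjusted p below 0.05, and Cyp2b10, Cyp2c40 and Cyp2c69 stand far to the right of all other members.

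In the Cyp2b subfamily, Cyp2b10 (chromosome 7) was the sole tested member of 5. It is the classical target of the receptor CAR. Cyp2b10 stood at 0.961, 1.71, 1.62, 2.47 and 2.02 CPM in the WT vehicle mice and at 45.7, 115, 125, 54.3 and 127 CPM in the WT CORT mice. AS mice had Cyp2b10 at 1.63, 6.17, 4.72, 3.97 and 1.79 CPM with vehicle and at 139.8, 89.2, 49.1, 226 and 206 CPM with CORT. All CORT mice were above all vehicle mice of their genotype. Cyp2b10 rose by 53.2-fold in WT mice, a log2 change of 5.73 (SE 0.50, adjusted p = 1.26e-07), and by 38.8-fold in AS livers, with 5.28 (SE 0.47, adjusted p = 1.11e-07) as the log2 change. On the scale of RPKM it went from 0.831 ± 0.262 to 44.2 ± 18.9 in WT mice and from 1.73 ± 0.920 to 67.2 ± 35.5 in AS mice (mean ± SD, n = 5), so it remained below the main Cyp2c and Cyp2d members after CORT. Cyp2b10 shared no window of 100 bases with another gene. Its relative Cyp2b9, a female-biased gene, had a mean of 0.417 CPM in WT vehicle, 0.0408 in WT CORT, 1.53 in AS vehicle and 0.846 in AS CORT mice and did not pass the filter.

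The Cyp2c subfamily had 13 tested members of 15, all on chromosome 19, of which 5 rose and 2 fell in WT mice and 7 rose and 2 fell in AS mice. Cyp2c40, Cyp2c69, Cyp2c68 and Cyp2c67 are neighbouring copies, and the first pair is known to be female-biased in liver. Vehicle mice had few counts of either. Cyp2c40 had 14, 7, 9, 14 and 3 counts in the WT vehicle mice and 159, 460, 430, 1029 and 170 in the WT CORT mice. AS mice had 3, 4, 25, 1 and 38 counts of Cyp2c40 with vehicle and 167, 198, 520, 565 and 710 with CORT. The groups of each genotype did not overlap, and AS vehicle mice L11 and L19 were above the other 3. Cyp2c40 rose by 48.6-fold in WT mice, a log2 change of 5.60 (SE 0.73, adjusted p = 1.95e-05), and by 31.7-fold in AS livers, with 4.99 (SE 0.69, adjusted p = 2.18e-05) as the log2 change. Without the AS vehicle mouse L19 the AS change was 54.0-fold.

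Cyp2c69 had 2, 4, 1, 4 and 1 counts in the WT vehicle mice and 56, 172, 208, 666 and 64 in the WT CORT mice. AS mice had 3, 2, 3, 2 and 10 counts of Cyp2c69 with vehicle and 96, 104, 220, 283 and 373 with CORT. Every CORT mouse was above every vehicle mouse, and the same mouse, L15, had the highest Cyp2c40 and Cyp2c69 among WT CORT mice. Cyp2c69 rose by 95.2-fold in WT mice, a log2 change of 6.57 (SE 0.85, adjusted p = 1.76e-05), and by 54.9-fold in AS livers, with 5.78 (SE 0.79, adjusted p = 1.9e-05) as the log2 change. These folds rest on 12 counts in all 5 WT vehicle mice and 20 in all 5 AS vehicle mice, and were 50.6-fold in WT without L15 and 86.0-fold in AS without L19. In CPM, Cyp2c40 went from 0.469 ± 0.241 to 22.99 ± 18.1 in WT and from 0.692 ± 0.7997 to 22.2 ± 12.7 in AS mice, and Cyp2c69 from 0.121 ± 0.0797 to 11.9 ± 12.8 and from 0.195 ± 0.163 to 11.1 ± 6.41.

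The next copy, Cyp2c68, was already well expressed with vehicle. Cyp2c68 stood at 90.9, 92.2, 94.99, 115 and 83.7 CPM in the WT vehicle mice and at 129.7, 195, 210.5, 204 and 152 CPM in the WT CORT mice. AS mice had Cyp2c68 at 91.8, 84.3, 136, 81.1 and 122 CPM with vehicle and at 157, 159, 189, 191 and 239.7 CPM with CORT. The groups did not overlap within either genotype. Cyp2c68 rose by 1.87-fold in WT mice, a log2 change of 0.90 (SE 0.16, adjusted p = 0.000437), and by 1.81-fold in AS livers, with 0.86 (SE 0.16, adjusted p = 0.000446) as the log2 change. Cyp2c67, the fourth copy, was at 306 ± 44.6 CPM in WT vehicle and 361 ± 49.7 with CORT in WT mice, and at 249 ± 59.0 in AS vehicle and 311 ± 45.3 in AS CORT mice. Its log2 changes of 0.23 (SE 0.15, adjusted p = 0.296) in WT and 0.32 (SE 0.15, adjusted p = 0.109) among AS livers missed the threshold. Sequence can thus be set beside response for 4 close copies, which ranged from the largest log2 changes of the family to no call.

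To show where reads of the copies can and cannot be told apart, the coding exons of equal length were compared (GENCODE M21 on GRCm38, minus strand, 5' to 3', exons 2 to 8, 1123 bases). Cyp2c40 differed from Cyp2c69 at 23 of these bases, from Cyp2c68 at 21 and from Cyp2c67 at 29. Exon 4 has 161 bases and is identical in Cyp2c40 (chr19:39803770-39803930) and Cyp2c69 (chr19:39877506-39877666), so a single read within it fits both, unless its mate lies where the copies differ. Cyp2c68 (chr19:39735577-39735737) and Cyp2c67 (chr19:39639857-39640017) each differ from them at 2 bases. Capitals mark bases that differ from Cyp2c40.
Cyp2c40 and Cyp2c69, exon 4: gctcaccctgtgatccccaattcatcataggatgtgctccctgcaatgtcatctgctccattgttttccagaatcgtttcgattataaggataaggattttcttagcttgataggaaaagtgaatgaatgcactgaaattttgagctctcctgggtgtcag
Cyp2c68, exon 4: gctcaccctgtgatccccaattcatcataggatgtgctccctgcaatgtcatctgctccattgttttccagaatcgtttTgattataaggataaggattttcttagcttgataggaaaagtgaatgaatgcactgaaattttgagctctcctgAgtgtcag
Cyp2c67, exon 4: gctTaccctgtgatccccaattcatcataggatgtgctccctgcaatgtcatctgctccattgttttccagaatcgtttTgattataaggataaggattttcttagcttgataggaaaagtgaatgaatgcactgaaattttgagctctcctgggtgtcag
Exon 7 has 188 bases and holds the most differences between Cyp2c40 (chr19:39777914-39778101) and Cyp2c69 (chr19:39851029-39851216), 8 in number, while Cyp2c68 (chr19:39703329-39703516) differs from Cyp2c40 at 1 base and Cyp2c67 (chr19:39617302-39617489) at 8.
Cyp2c40, exon 7: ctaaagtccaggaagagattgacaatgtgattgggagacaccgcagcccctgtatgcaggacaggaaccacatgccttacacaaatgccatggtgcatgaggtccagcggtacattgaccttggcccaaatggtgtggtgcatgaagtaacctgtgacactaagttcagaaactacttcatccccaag
Cyp2c69, exon 7: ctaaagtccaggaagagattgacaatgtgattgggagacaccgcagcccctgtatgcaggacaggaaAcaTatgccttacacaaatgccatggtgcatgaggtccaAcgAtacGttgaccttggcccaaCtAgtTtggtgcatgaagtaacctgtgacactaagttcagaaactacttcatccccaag
Cyp2c68, exon 7: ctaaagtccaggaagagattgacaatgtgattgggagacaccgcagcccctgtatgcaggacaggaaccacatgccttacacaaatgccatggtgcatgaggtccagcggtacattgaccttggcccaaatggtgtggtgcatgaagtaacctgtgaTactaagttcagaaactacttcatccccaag
Cyp2c67, exon 7: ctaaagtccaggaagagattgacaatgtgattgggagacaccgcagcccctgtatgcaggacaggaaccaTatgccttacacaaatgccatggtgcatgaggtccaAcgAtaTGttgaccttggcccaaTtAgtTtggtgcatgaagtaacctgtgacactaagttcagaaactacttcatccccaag
Over whole transcripts Cyp2c40 and Cyp2c69 shared the most, 22.1% of the windows of Cyp2c40 and 29.6% of those of Cyp2c69, and Cyp2c68 shared 16.7% of its windows with Cyp2c40. Read pairs that match 2 copies in both mates cannot be told apart.

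A stretch of the promoters of these 4 copies was also nearly alike. Shown are the 160 bases before the annotated start of Cyp2c40 and the stretches of the other 3 promoters aligned to it (RefSeq, GRCm38.p6, minus strand, 5' to 3'), because the 4 copies differed in log2 change. Identity to Cyp2c40 was 98.1% for Cyp2c69, 93.8% for Cyp2c68 and 93.1% for Cyp2c67. The aligned stretch ends 30 bases before the RefSeq start of Cyp2c69, 32 before that of Cyp2c68 and 80 before that of Cyp2c67. Bases nearer to those starts were not compared. Capitals mark bases that differ from Cyp2c40 or are inserted.
Cyp2c40, chr19:39812815-39812974: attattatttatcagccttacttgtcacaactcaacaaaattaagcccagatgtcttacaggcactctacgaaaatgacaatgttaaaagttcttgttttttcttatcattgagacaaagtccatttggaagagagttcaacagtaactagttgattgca
Cyp2c69, chr19:39886800-39886959: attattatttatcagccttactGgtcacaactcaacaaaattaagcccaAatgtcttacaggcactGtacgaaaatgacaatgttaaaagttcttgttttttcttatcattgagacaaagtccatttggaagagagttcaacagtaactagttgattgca
Cyp2c68, chr19:39741134-39741294: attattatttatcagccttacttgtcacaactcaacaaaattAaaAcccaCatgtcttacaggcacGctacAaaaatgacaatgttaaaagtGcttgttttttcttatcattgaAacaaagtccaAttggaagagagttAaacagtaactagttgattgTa
Cyp2c67, chr19:39649123-39649282: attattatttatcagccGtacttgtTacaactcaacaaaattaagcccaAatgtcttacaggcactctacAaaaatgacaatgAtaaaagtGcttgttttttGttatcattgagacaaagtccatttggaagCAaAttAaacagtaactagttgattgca
Cyp2c69 had 3 such bases and, with Cyp2c40, the largest log2 changes of the Cyp2c genes, whereas Cyp2c68 had 10 and Cyp2c67 had 11. This order holds on the log2 scale only, where low vehicle levels weigh heavily. In WT mice the mean went from 95.3 to 178 CPM for Cyp2c68 and from 306 to 361 CPM for Cyp2c67. Cyp2c40 gained less in CPM, from 0.469 to 22.99, as did Cyp2c69, from 0.121 to 11.9. Which, if any, of these bases bear on the response was not tested.

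Cyp2c38 and Cyp2c39 are arachidonic acid epoxygenases encoded by adjacent genes on opposite strands, and neither shared a window of 100 bases with another gene. Cyp2c38 stood at 20.4, 20.03, 18.4, 29.4 and 20.5 CPM in the WT vehicle mice and at 49.4, 43.6, 58.3, 55.3 and 64.9 CPM in the WT CORT mice. AS mice had Cyp2c38 at 31.0, 30.5, 30.2, 29.5 and 30.1 CPM with vehicle and at 65.1, 69.3, 107, 98.8 and 86.6 CPM with CORT. Cyp2c39 stood at 34.9, 36.8, 28.5, 44.8 and 34.0 CPM in the WT vehicle mice and at 86.5, 70.5, 110.0, 94.5 and 131 CPM in the WT CORT mice. In AS mice Cyp2c39 was at 42.5, 51.3, 60.2, 40.5 and 52.0 CPM with vehicle and at 119.8, 138, 196, 165 and 140.5 CPM with CORT. For both genes CORT and vehicle mice did not overlap in either genotype, and the AS vehicle mice were alike in Cyp2c38, within 29.5 to 31.0 CPM. Cyp2c38 rose by 2.50-fold in WT mice, a log2 change of 1.32 (SE 0.14, adjusted p = 1.61e-06), and by 2.82-fold in AS livers, with 1.496 (SE 0.14, adjusted p = 2.03e-07) as the log2 change. Cyp2c39 rose by 2.75-fold in WT mice, a log2 change of 1.46 (SE 0.16, adjusted p = 3e-06), and by 3.08-fold in AS livers, with 1.62 (SE 0.16, adjusted p = 5.07e-07) as the log2 change. The changes of the pair were of near-equal size in each genotype.

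Their promoters both hold AGAACA, a part of the glucocorticoid response element, at 51 bases before the start of Cyp2c38 and 23 bases before that of Cyp2c39. The 250 bases before each start are shown (RefSeq, GRCm38.p6, 5' to 3' along the gene, minus strand for Cyp2c38 and plus strand for Cyp2c39), with this motif in capitals.
Cyp2c38, chr19:39463076-39463325: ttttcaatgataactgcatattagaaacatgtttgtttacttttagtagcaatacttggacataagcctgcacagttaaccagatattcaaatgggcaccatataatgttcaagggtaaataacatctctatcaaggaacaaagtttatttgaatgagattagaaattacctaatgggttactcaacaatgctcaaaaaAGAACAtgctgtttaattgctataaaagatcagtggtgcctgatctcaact
Cyp2c39, chr19:39510572-39510821: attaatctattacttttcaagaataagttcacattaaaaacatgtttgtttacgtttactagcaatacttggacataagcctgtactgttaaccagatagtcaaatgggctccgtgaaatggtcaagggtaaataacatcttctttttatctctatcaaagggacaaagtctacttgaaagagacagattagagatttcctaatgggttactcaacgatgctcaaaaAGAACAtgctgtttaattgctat
Searched on both strands over windows of 300 bases (250 before and 50 after the start), AGAACA occurred in 18.97% of 32851 promoters of all genes and in 12 of 43 promoters of the 41 members matched (27.9%). Holders included Cyp2d10, Cyp2d26 and Cyp2f2, and also Cyp2c50 and Cyp2j6, which were not called. The other holders, Cyp2b19, Cyp2b23, Cyp2d11, Cyp2j8 and Cyp2j11, were not tested in liver. No match was found for Cyp2a12, Cyp2c23, Cyp2c55, Cyp2c68, Cyp2d40 and Cyp2u1, which were called in both genotypes. Only 41 of the 49 members had a promoter to search. These letters were not in the windows of Cyp2b10, Cyp2c40 and Cyp2c69. TTCNNNGAA, the form bound by STAT5, reads the same on both strands and occurred in 8.30% of all promoters and, among members, in those of Cyp2j11 and Cyp2j12 alone, which had no count in liver. A match is a description and was not tested for binding.

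**Figure D3:**
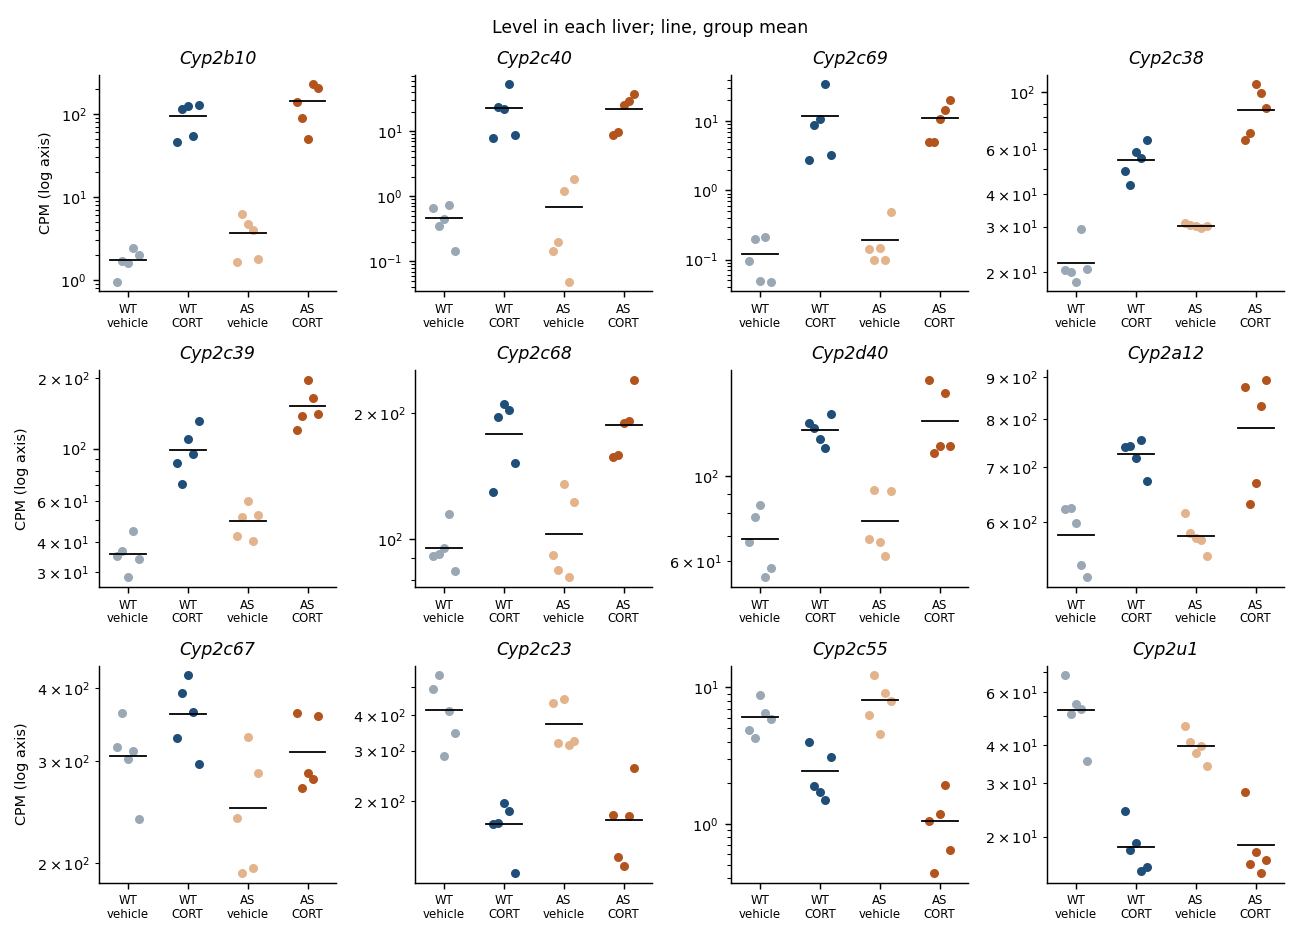
CPM (log axis, each panel with its own scale) of 12 Cyp2 members in the liver of each mouse, 5 in each of the 4 groups, with the group mean as a line. Cyp2b10, Cyp2c40 and Cyp2c69 rise most, Cyp2c38, Cyp2c39, Cyp2c68, Cyp2d40 and Cyp2a12 rise less, Cyp2c67 overlaps between groups, and Cyp2c23, Cyp2c55 and Cyp2u1 are lower with CORT.

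Among the Cyp2c genes that fell, Cyp2c23 encodes an arachidonic acid epoxygenase and lies on chromosome 19 apart from the main Cyp2c cluster. Cyp2c23 stood at 493, 548, 287, 411 and 344 CPM in the WT vehicle mice and at 166, 168, 198, 185 and 113 CPM in the WT CORT mice. AS mice had Cyp2c23 at 440.1, 319, 454, 314 and 324 CPM with vehicle and at 178, 127, 119, 178 and 260.0 CPM with CORT. All CORT mice were below all vehicle mice of their genotype. Cyp2c23 fell by 2.51-fold in WT mice, a log2 change of -1.33 (SE 0.21, adjusted p = 0.000161), and by 2.15-fold in AS livers, with -1.10 (SE 0.21, adjusted p = 0.000556) as the log2 change. Cyp2c55, another arachidonic acid monooxygenase, was far lower in level. Cyp2c55 stood at 4.85, 4.27, 8.73, 6.45 and 5.82 CPM in the WT vehicle mice and at 3.96, 1.90, 1.71, 1.48 and 3.11 CPM in the WT CORT mice. For AS mice Cyp2c55 was at 6.29, 12.2, 4.57, 9.12 and 7.94 CPM with vehicle and at 1.05, 0.438, 1.18, 1.92 and 0.641 CPM with CORT. The groups did not overlap in either genotype. Cyp2c55 fell by 2.47-fold in WT mice, a log2 change of -1.31 (SE 0.33, adjusted p = 0.00728), and by 7.67-fold in AS livers, with -2.94 (SE 0.36, adjusted p = 4.56e-06) as the log2 change. The difference between these 2 changes, an interaction of -1.63 (SE 0.48, adjusted p = 0.474), did not pass the threshold.

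Of the other Cyp2c members, Cyp2c37 rose in AS mice, from 113 ± 23.4 to 184 ± 33.5 CPM (log2 0.70, SE 0.15, adjusted p = 0.00193), and stood at 135 ± 29.7 against 156 ± 16.9 CPM in WT mice (log2 0.21, SE 0.15, adjusted p = 0.381). Cyp2c29, the Cyp2c member with the highest level, had overlapping groups. Cyp2c29 stood at 1122, 1085, 1284, 1567 and 1086 CPM in the WT vehicle mice and at 1555, 1441, 1659.6, 1267 and 1844 CPM in the WT CORT mice. AS mice had Cyp2c29 at 1103, 1108, 927, 1186 and 894 CPM with vehicle and at 1921, 1176, 1127, 1783 and 1334 CPM with CORT. It rose in AS mice (log2 0.49, SE 0.15, adjusted p = 0.018), and its WT change was 0.34 (SE 0.15, adjusted p = 0.124). This call was lost without AS CORT mouse L7 (adjusted p = 0.0617), L16 (0.0519) or AS vehicle mouse L19 (0.0512), and without the 6 libraries apart (0.0583). The interaction was 0.49 (SE 0.22, adjusted p = 0.573) for Cyp2c37 and 0.15 (SE 0.21, adjusted p = 0.844) for Cyp2c29, so a difference between genotypes was not shown. Cyp2c50, Cyp2c54 and Cyp2c70 were not called in either genotype, with log2 changes from -0.066 to 0.37. Cyp2c70, which makes muricholic acids from chenodeoxycholic acid, had 587 ± 112 against 759.9 ± 251 CPM in WT and 683 ± 209.8 against 747 ± 197 CPM in AS mice.

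The Cyp2d subfamily, on chromosome 15, is the mouse counterpart of the human drug-metabolizing CYP2D genes. Of 8 members 5 were tested, of which 2 rose in WT and 4 in AS mice and 0 fell, while 8.73% and 12.6% of all genes rose. Cyp2d40 changed most. Cyp2d40 stood at 67.3, 78.4, 84.3, 54.6 and 57.8 CPM in the WT vehicle mice and at 138, 133, 124, 118 and 145 CPM in the WT CORT mice. AS mice had Cyp2d40 at 68.4, 92.0, 67.3, 62.1 and 91.4 CPM with vehicle and at 177, 114, 119.6, 164 and 119.7 CPM with CORT. The groups did not overlap in either genotype. Cyp2d40 rose by 1.92-fold in WT mice, a log2 change of 0.94 (SE 0.15, adjusted p = 0.000137), and by 1.82-fold in AS livers, with 0.87 (SE 0.15, adjusted p = 0.000175) as the log2 change. Cyp2d10 rose less, from a higher level. Cyp2d10 stood at 729, 737, 671, 679.7 and 613 CPM in the WT vehicle mice and at 910.1, 891, 802, 782 and 888 CPM in the WT CORT mice. In AS livers Cyp2d10 was at 787, 622, 608, 653 and 582 CPM with vehicle and at 1046, 843, 787, 875 and 889 CPM with CORT. Again no CORT mouse fell within the range of the vehicle mice, but the AS groups all but touched, at 786.7 CPM in L2 with vehicle and 786.8 CPM in L10 with CORT. Cyp2d10 rose by 1.25-fold in WT mice, a log2 change of 0.32 (SE 0.087, adjusted p = 0.0134), and by 1.36-fold in AS livers, with 0.45 (SE 0.087, adjusted p = 0.00064) as the log2 change. Cyp2d10 shared 11.7% of its windows, mostly with Cyp2d11.

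Cyp2d26 rose in AS mice, from 936 ± 75.9 to 1248 ± 143 CPM (log2 0.41, SE 0.083, adjusted p = 0.000877), and had 924 ± 95.1 against 1084 ± 45.8 CPM in WT mice (log2 0.23, SE 0.083, adjusted p = 0.0596). Cyp2d22 rose in AS mice from 318 ± 31.6 to 377 ± 34.6 CPM (log2 0.25, SE 0.078, adjusted p = 0.0227), with 329 ± 25.2 against 329.8 ± 19.4 CPM in WT mice (log2 0.0054, SE 0.078, adjusted p = 0.976), and its AS call was lost without AS CORT mouse L7 (adjusted p = 0.075) or L8 (0.0511), or AS vehicle mouse L11 (0.0697) or L19 (0.0608), and without the 6 libraries apart (0.0636). The interactions were 0.18 (SE 0.12, adjusted p = 0.678) and 0.24 (SE 0.11, adjusted p = 0.592). Cyp2d9, the member with the highest Cyp2d level and a marker of male liver, did not pass. Cyp2d9 stood at 1467, 1534, 1371, 1363 and 1237 CPM in the WT vehicle mice and at 1588, 1389.8, 1421, 1111 and 1436 CPM in the WT CORT mice. AS mice had Cyp2d9 at 1406, 1020.2, 952, 1362 and 969.5 CPM with vehicle and at 1544, 1311, 978, 1075 and 1135 CPM with CORT. The groups overlapped in both genotypes, with log2 changes of -0.0059 (SE 0.13, adjusted p = 0.985) in WT and 0.081 (SE 0.13, adjusted p = 0.693) for AS mice.

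All 4 Cyp2a genes were tested, of which 2 rose in WT and 1 in AS mice, while 8.73% and 12.6% of all genes rose. Cyp2a12, a steroid and bile acid hydroxylase, rose in both. Cyp2a12 stood at 623, 624, 599, 533 and 515 CPM in the WT vehicle mice and at 739.6, 744, 717, 755 and 674 CPM in the WT CORT mice. AS mice had Cyp2a12 at 616, 583, 574, 571 and 546 CPM with vehicle and at 877, 631, 669, 831 and 893 CPM with CORT. The groups did not overlap within either genotype, although the AS CORT mice ranged widely. Cyp2a12 rose by 1.25-fold in WT mice, a log2 change of 0.33 (SE 0.088, adjusted p = 0.0125), and by 1.35-fold in AS livers, with 0.43 (SE 0.088, adjusted p = 0.001) as the log2 change. Cyp2a22 was near the floor, with 16, 15, 9, 6 and 11 counts in WT vehicle and 33, 7, 27, 30 and 35 in WT CORT mice. In AS mice its counts were 15, 24, 24, 17 and 19 with vehicle and 21, 37, 49, 43 and 22 with CORT. The WT CORT mouse L5 lay within the range of the vehicle mice. Cyp2a22 rose in WT mice (log2 1.24, SE 0.35, adjusted p = 0.0165) and had a log2 change of 0.84 (SE 0.32, adjusted p = 0.0566) in AS mice. The WT call was lost without L20 (adjusted p = 0.0528) and with limma-voom (0.0911).

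Cyp2a5, a coumarin and nicotine hydroxylase, and its close copy Cyp2a4, a female-biased testosterone hydroxylase, varied between mice in a way that the groups did not follow. Cyp2a5 stood at 679, 878, 98.9, 170.2 and 117 CPM in the WT vehicle mice and at 477, 119.7, 119, 130.4 and 160.3 CPM in the WT CORT mice. AS mice had Cyp2a5 at 571, 134, 85.5, 129 and 91.9 CPM with vehicle and at 303, 339, 118, 163 and 148 CPM with CORT. In every group the highest values belonged to the libraries that lay apart, at 303 to 878 CPM in those 6 livers and 85.5 to 170.2 CPM in the other 14. CORT gave log2 changes of -0.95 (SE 0.64, adjusted p = 0.342) in WT and 0.082 (SE 0.64, adjusted p = 0.944) in AS mice, and of 0.04 (SE 0.19) and 0.38 (SE 0.19) without those 6, none of them called. Cyp2a4 had 116, 70.9, 9.18, 13.5 and 7.89 CPM in the WT vehicle mice and 19.2, 18.0, 20.3, 33.2 and 10.9 in the WT CORT mice. AS mice had Cyp2a4 at 258, 44.0, 70.1, 28.7 and 66.8 CPM with vehicle and 92.0, 35.6, 27.8, 24.9 and 27.5 with CORT. Its log2 changes of -1.10 (SE 0.70, adjusted p = 0.306) in WT and -1.17 (SE 0.69, adjusted p = 0.218) in AS mice did not pass. Without the 6 libraries they were 1.02 (adjusted p = 0.0524) and -0.97 (adjusted p = 0.0379), so that the WT estimate changed sign and the AS one became a call. Cyp2a4 and Cyp2a5 shared 11.2% and 12.1% of their windows, mostly with each other.

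**Figure D4:**
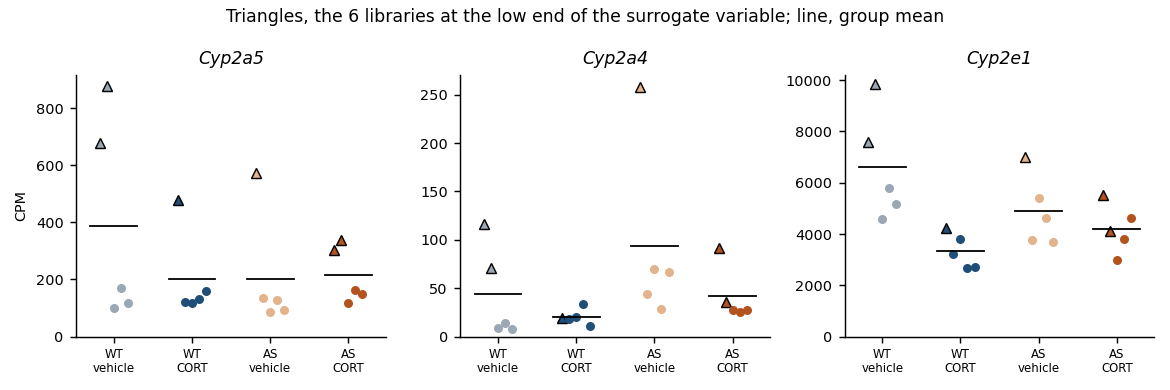
CPM of Cyp2a5, Cyp2a4 and Cyp2e1 in the liver of each mouse, 5 in each of the 4 groups, with the group mean as a line and triangles for the 6 libraries that lay apart. The triangles hold the highest Cyp2a5 values of every group.

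Cyp2e1, the most abundant member, lies alone at the far end of chromosome 7. Cyp2e1 stood at 7590.4, 9861, 4586, 5805 and 5185 CPM in the WT vehicle mice and at 4247, 3231, 3799, 2660.0 and 2701 CPM in the WT CORT mice. AS mice had Cyp2e1 at 7013, 3754, 5391, 4610.1 and 3684 CPM with vehicle and at 5506, 4106, 3003, 3789 and 4621 CPM with CORT. The WT groups did not overlap, whereas the AS groups did. Cyp2e1 fell by 1.99-fold in WT mice, a log2 change of -0.99 (SE 0.22, adjusted p = 0.00293), and the change in AS mice was -0.22 (SE 0.22, adjusted p = 0.492). The interaction of 0.77 (SE 0.31, adjusted p = 0.539) did not pass, so a weaker response of AS mice was not shown. With 1 surrogate variable the AS change was -0.39 and was called (adjusted p = 0.0193), and without the 6 libraries apart it was -0.20 (adjusted p = 0.44), while the WT change was called under both, at -0.85 and -0.75. Cyp2f2, also on chromosome 7, varied little within groups. Cyp2f2 stood at 1763, 1802, 1810.2, 1746 and 1600.4 CPM in the WT vehicle mice and at 1953, 2333, 2345, 2467 and 1882 CPM in the WT CORT mice. AS mice had Cyp2f2 at 1666, 1753, 1719, 1778 and 1658 CPM with vehicle and at 2243, 1786, 1820.3, 1963 and 2256 CPM with CORT. The groups did not overlap in either genotype. Cyp2f2 rose by 1.26-fold in WT mice, a log2 change of 0.33 (SE 0.082, adjusted p = 0.007), and by 1.17-fold in AS livers, with 0.23 (SE 0.082, adjusted p = 0.0419) as the log2 change. The AS call of Cyp2f2 was lost when any of 8 mice (L2, L7, L9, L11, L14, L16, L18, L19) was left out, with adjusted p up to 0.106, and without the 6 libraries apart (0.117).

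Cyp2u1, a fatty acid hydroxylase on chromosome 3, fell in both genotypes. Cyp2u1 stood at 68.0, 50.8, 55.0, 52.9 and 35.6 CPM in the WT vehicle mice and at 24.3, 18.0, 19.03, 15.4 and 15.8 CPM in the WT CORT mice. AS mice had Cyp2u1 at 46.4, 40.9, 37.8, 39.7 and 34.3 CPM with vehicle and at 28.0, 16.2, 17.8, 15.2 and 16.7 CPM with CORT. No CORT mouse reached the range of the vehicle mice. Cyp2u1 fell by 2.83-fold in WT mice, a log2 change of -1.501 (SE 0.17, adjusted p = 4.26e-06), and by 2.12-fold in AS livers, with -1.08 (SE 0.17, adjusted p = 9.23e-05) as the log2 change. The gene overlaps 4930534D22Rik on the opposite strand over 548 exonic bases, and reads of the 2 could not be told apart if counting ignored strand. The Cyp2j epoxygenases on chromosome 4 did not pass in either genotype. Cyp2j5 stood at 665, 591, 688, 748 and 558 CPM in the WT vehicle mice and at 637, 659, 718, 668 and 719 CPM in the WT CORT mice. AS mice had Cyp2j5 at 628, 652, 645, 662 and 646 CPM with vehicle and at 655, 599, 674, 744 and 713 CPM with CORT. The Cyp2j5 groups overlapped, with log2 changes of 0.065 and 0.066 (SE 0.074 and 0.074). Cyp2j6 and Cyp2j9 had log2 changes from -0.30 to -0.11. Cyp2r1 encodes a vitamin D hydroxylase. Cyp2r1 stood at 17.8, 14.4, 17.8, 19.9 and 16.4 CPM in the WT vehicle mice and at 18.6, 18.5, 19.4, 18.8 and 20.7 CPM in the WT CORT mice. AS mice had Cyp2r1 at 19.1, 16.99, 16.7, 21.9 and 17.7 CPM with vehicle and at 14.4, 15.5, 17.1, 18.0 and 15.8 CPM with CORT. The Cyp2r1 groups overlapped, and neither its changes, 0.16 (SE 0.089, adjusted p = 0.249) in WT and -0.19 (SE 0.089, adjusted p = 0.115) in AS livers, nor their difference (-0.35, SE 0.13, adjusted p = 0.499) passed.

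Levels were summed over all members and written as a percentage of the TMM-normalized CPM scale. The Cyp2 sum was 1.72% ± 0.278 in WT vehicle, 1.53% ± 0.0955 in WT CORT, 1.48% ± 0.190 in AS vehicle and 1.62% ± 0.215 in AS CORT mice (mean ± SD, n = 5). Such percentages are not shares of the raw counts, because TMM rescales each library. A difference between groups in them need not hold for raw shares. Cyp2e1 made up 37.7% of this sum of WT vehicle livers, 21.6% in WT CORT, 32.5% in AS vehicle and 25.8% in AS CORT mice. Without Cyp2e1 the sum was 1.06% ± 0.0796 in WT vehicle against 1.20% ± 0.0425 in WT CORT livers, and 0.994% ± 0.0564 in AS vehicle against 1.20% ± 0.133 in AS CORT mice. The Cyp2b sum, nearly all Cyp2b10, reached 93.4 CPM in WT CORT and 143 CPM in AS CORT mice, which is small beside the Cyp2c sums of 4139.7 and 4139 CPM. The largest relative changes thus lay in members that added little to the total.

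**Figure D5:**
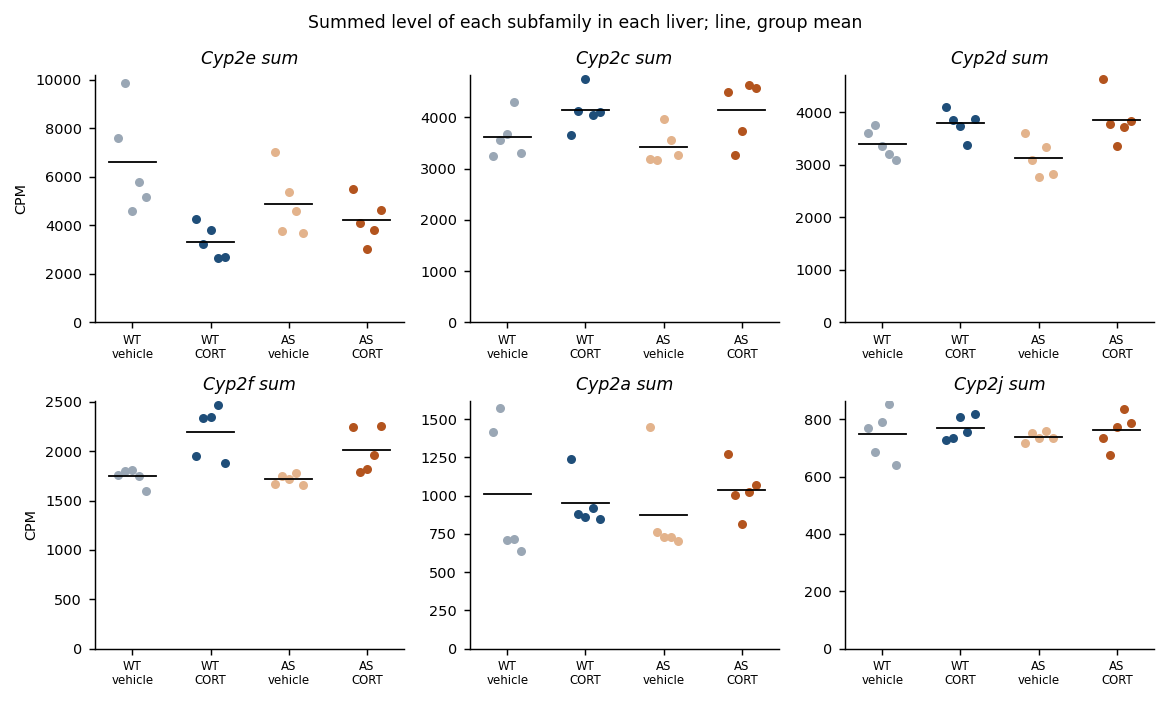
Summed CPM of 6 subfamilies in the liver of each mouse, 5 in each of the 4 groups, with the group mean as a line and axes that start at 0. Cyp2e has the highest mean with vehicle in both genotypes, lies below Cyp2c and Cyp2d in WT CORT mice and near Cyp2c in AS CORT mice, and the Cyp2j sums are near-level across groups.

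Few members differed by genotype. With vehicle, edgeR called 0 of the 30 members between AS and WT mice, against 0.0163% of all genes, as did DESeq2 and limma-voom. In edgeR, 5 of the 30 members and 1270 of all 12273 genes had an unadjusted p under 0.05. With CORT, 1 was called, Cyp2c38, against 0.277% of all genes. Cyp2c38 was higher in AS CORT than in WT CORT mice, 85.3 ± 18.1 against 54.3 ± 8.20 CPM, a log2 difference of 0.65 (SE 0.14, adjusted p = 0.0484). No AS CORT mouse lay below any WT CORT mouse, by a narrow margin of 65.1 against 64.9 CPM. The call was near the threshold: leaving out any 1 of 16 of the 20 mice raised the adjusted p to between 0.0521 and 0.155. Without the 6 libraries apart it was called, at a log2 difference of 0.81 (adjusted p = 0.0339). With vehicle, Cyp2c38 stood at 30.2 ± 0.543 CPM in AS and 21.7 ± 4.36 CPM in WT mice, a log2 difference of 0.48 (SE 0.14, adjusted p = 0.249). The genotypes did not overlap with vehicle either, with 29.5 CPM as the lowest AS and 29.4 CPM as the highest WT value. The interaction for Cyp2c38 was 0.18 (SE 0.20, adjusted p = 0.81), so a genotype difference particular to CORT was not shown. Its neighbour Cyp2c39 had log2 differences of 0.62 (SE 0.16, adjusted p = 0.145) with CORT and 0.46 (SE 0.16, adjusted p = 0.316) with vehicle. The interaction term (AS response to CORT less the WT response) was called for 0 of the 30 members by edgeR, DESeq2 and limma-voom, against 0.00% of all genes. In edgeR, 5 of the 30 members had an unadjusted p under 0.05, namely Cyp2c37, Cyp2c55, Cyp2d22, Cyp2e1 and Cyp2r1. Of all 12273 genes, 995 did so.

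Some regulators of the family were called with CORT. Of 20 receptors and transcription factors known to control Cyp2 genes, 2 rose and 2 fell in WT mice. In AS mice 5 rose and 3 fell. The median log2 changes were -0.02 and 0.036. Of all genes tested, 8.73% rose and 9.90% fell in WT mice, and 12.6% rose and 15% fell in AS mice. The WT counts of the regulators were thus near the shares of all genes. Neither this list nor those that follow were tested against these shares. Nr1i2, which encodes PXR, rose by 0.39 (adjusted p = 0.0101) on the log2 scale in WT and by 0.65 (adjusted p = 7.61e-05) in AS mice. Nr1i3, which encodes CAR, had a log2 change of 0.014 (adjusted p = 0.973) in WT mice and rose in AS mice by 0.81 (adjusted p = 0.0031). Nr3c1, which encodes GR, had log2 changes of -0.15 (adjusted p = 0.0202) and -0.22 (adjusted p = 0.000766), both called as lower. Cux2, a factor that represses male-biased genes, had a log2 change of 0.72 (adjusted p = 0.508) in WT mice and rose by 2.85 (adjusted p = 0.000182) in AS mice, and was higher in AS than in WT mice with CORT by 3.01 (adjusted p = 0.00861). Of 5 electron donor genes, 0 were called in WT and 2 fell in AS mice, Cyb5b and Cyb5r3, and the oxidoreductase Por had log2 changes of 0.20 (adjusted p = 0.849) and 1.49 (adjusted p = 0.0547). Of 12 genes of haem synthesis and breakdown, 2 rose and 2 fell in WT and 2 rose and 4 fell in AS mice. The medians were -0.077 and -0.045 for the electron donors and -0.013 and -0.02 for the haem genes. Alad and Fech fell in both, with log2 changes in WT of -0.51 (adjusted p = 9.72e-05) and -0.46 (adjusted p = 0.000301), while Cpox and Hmox2 rose in both.

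Genes that share the sex bias or the zonation of Cyp2 genes were described in the same way, with no test against the shares of all genes. Of 6 female-biased Cyp2 genes 3 were tested, and Cyp2c40 and Cyp2c69 rose in both genotypes while Cyp2a4 was not called. The list had no common direction. The estimates of Cyp2a4 were negative, at log2 -1.10 in WT and -1.17 in AS mice. The untested Cyp2b9 and Cyp2g1 had lower means with CORT in WT mice, 0.417 against 0.0408 and 0.794 against 0.213 CPM. In AS mice they went from 1.53 to 0.846 and from 0.455 to 0.454 CPM. Cyp2b13 had at most 0.0523 CPM. Of 8 male-biased genes outside the family, 1 rose (Mup20) and 1 fell (Hsd3b5) in WT mice, and 3 fell in AS mice (Hsd3b5, Cyp4a12a and Cyp4a12b), with median log2 changes of 0.0084 and -0.66. Of 10 tested pericentral genes, 1 rose and 6 fell in WT and 2 rose and 4 fell in AS mice, with Cyp1a2 at log2 -0.87 (adjusted p = 0.00067) and -0.57 (adjusted p = 0.0126). Of 9 periportal genes, 2 rose in WT and 6 in AS mice, and 0 fell. The medians were -0.45 and -0.31 for the pericentral and 0.13 and 0.43 for the periportal genes, in WT and AS mice in turn. Glul, the marker of the innermost pericentral cells, rose by 0.33 (adjusted p = 0.0462) and 0.45 (adjusted p = 0.00514) on the log2 scale.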

How the data were processed

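Liver RNA of 20 mice of the continuous experiment was analysed. The authors aligned reads of stranded mRNA libraries to mm10 with STAR, obtained gene counts from HTSeq-count within BioWDL and deposited raw read counts. The strand setting and annotation release are not given in the sources used here. Symbols and exon lengths came from GENCODE M21 on GRCm38. Counts were fitted in R 4.3.3 with edgeR 4.0.16 (TMM, quasi-likelihood test, 4 groups in one fit), with Benjamini-Hochberg adjustment over the 12273 genes with a median-of-ratios count over 20 in 3 or more mice of any group. The fit was tested on simulated data. CPM were TMM-normalized, and RPKM divided them by merged exon length. Between 18612550 and 20868924 counts fell on genes per liver. P-values measure the spread between mice.

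Alternatives were DESeq2 1.42.0, its size factors, upper-quartile scaling, other filters, fits of 2 groups, limma-voom (limma 3.58.1), 1 surrogate variable (sva 3.50.0), an adjusted p under 0.01 and each mouse left out. A fit without 6 libraries was added after the data were seen. Members described with full values were those called in both genotypes (at most 12, by the smaller change), in a genotype contrast, or with the highest RPKM of their subfamily, and those called in 1 genotype are given with both values. Cyp2a4 and Cyp2c67 were added, as copies of such members, after their values were seen. The members, gene lists (regulators, electron donors, haem, sex-biased, pericentral and periportal genes, and markers of hepatocytes, macrophages, endothelium, stellate cells, cholangiocytes, lymphocytes, blood and neurons) and the rule were chosen with earlier results of these data known. Hippocampal libraries of the same table serve for levels only, with H9 and H13 left out. Rows of reads assigned to no gene were kept out of library sizes, and reads that aligned nowhere made up 1.49% to 8.93% per liver. The table held 0 columns of no sample. The list of female-biased genes outside the family is not reported here. The acute experiment was not analysed here.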

Additional observations from a re-analysis of the deposited data

Results flagged for a closer look

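In groups of 5 mice, a liver was marked when its gap to the nearest of the others exceeded 0.71 of the group's whole range (Dixon's rule), which chance gives in about 5% of groups. Of 92 groups examined, for 23 members, 7 had such a liver. Cyp2a22 stood at 0.359 CPM in L5 of the WT CORT mice, with 1.40 to 1.78 CPM in the other 4. Cyp2a5 stood at 477 CPM in L3 of the WT CORT mice, with 119 to 160.3 CPM in the other 4. Cyp2a5 stood at 571 CPM in L2 of the AS vehicle mice, with 85.5 to 134 CPM in the other 4. Cyp2c38 stood at 29.4 CPM in L13 of the WT vehicle mice, with 18.4 to 20.5 CPM in the other 4. Cyp2c69 stood at 34.0 CPM in L15 of the WT CORT mice, with 2.77 to 10.8 CPM in the other 4. Cyp2c69 stood at 0.484 CPM in L19 of the AS vehicle mice, with 0.0980 to 0.147 CPM in the other 4. Cyp2u1 stood at 28.0 CPM in L7 of the AS CORT mice, with 15.2 to 17.8 CPM in the other 4. The high Cyp2a5 values belong to libraries of the 6 that lay apart, and L15 was also highest of its group in Cyp2c40. The interaction was called for 0 members by edgeR. An unadjusted p under 0.05 was found in that test for 5 of the 30 tested members and for 995 of all 12273 genes.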

How the results depend on the processing

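The counts of members called for CORT stayed within 1.5 times of those reported under all alternatives, from 12 to 16 in WT and from 14 to 21 in AS mice, with 14 to 16 and 14 to 18 when each mouse was left out in turn. Shares of all genes under the alternatives are not given here, so these ranges concern the counts alone. For AS against WT mice with CORT, 1 member was reported, and the count was 2 with DESeq2 and with 1 surrogate variable (Cyp2c38 and Cyp2c39), 0 with upper-quartile scaling, filterByExpr, only the 2 groups compared or an adjusted p under 0.01, and 0 to 1 when each mouse was left out. The cause was not tested. For AS against WT mice with vehicle and for the interaction it was 0 under all alternatives, 0 to 0 when each mouse was left out. Of 33 single changes reported as called, 28 kept direction and call under all alternatives run for them, which did not include the adjusted p under 0.01. At that limit 2 of these 28, the WT changes of Cyp2a12 (edgeR adjusted p = 0.0125) and Cyp2d10 (0.0134), are not called. The other 5 kept direction and lost the call under some of them: Cyp2a22 in WT, Cyp2c29, Cyp2d22 and Cyp2f2 in AS mice, and Cyp2c38 between genotypes with CORT. The AS changes of Cyp2c40 and Cyp2c69 moved by more than 1.5 times with 1 surrogate variable, to 48.9-fold and 96.5-fold, and that of Cyp2c40 with limma-voom, to 59.8-fold. The interaction was not run with only 2 groups, which cannot hold it. No paired analysis was possible because the 4 liver groups share no mouse number. Depth limits Cyp2c69, Cyp2c40 and Cyp2a22, which had few counts in vehicle mice.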

Other observations

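The hippocampus of the same cohort gave a contrast of tissue for the family, as values only. In 8 hippocampal vehicle libraries, leaving out H9 and H13 as the study did, 6 members had a median over 1 CPM, against 27 in the 10 vehicle livers. Cyp2d22 stood at 33.1 to 43.6 CPM in hippocampus and 280.3 to 359 CPM in liver, Cyp2j6 at 18.2 to 21.2 and 72.7 to 97.3 CPM, and Cyp2u1 at 8.74 to 10.2 and 34.3 to 68.0 CPM. For Cyp2j9, Cyp2s1 and Cyp2j12 every hippocampal library was above every vehicle liver. Cyp2j9 had 20.3 to 25.6 CPM in hippocampus and 6.58 to 10.7 CPM in liver, Cyp2s1 had 1.73 to 3.45 and 0.0481 to 1.26 CPM, Cyp2j12 had 1.33 to 5.07 CPM and no count in liver, while Cyp2j13, with 0.0453 to 0.184 CPM and no count in liver, was near the floor of 3 counts in liver and cannot be ranked. Libraries of the tissues were normalized separately, so levels across them are a rough guide.

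Cyp2b9 and Cyp2g1, female-biased members below the filter in these male mice, were counted in most livers. Cyp2b9 had 8, 11, 5, 8 and 10 counts in WT vehicle, 0, 1, 0, 0 and 3 in WT CORT, 14, 57, 69, 1 and 14 in AS vehicle and 16, 6, 40, 20 and 2 in AS CORT mice. Counts of Cyp2g1 were 35, 20, 4, 18 and 3 in WT vehicle mice and 5, 1, 5, 5 and 5 in WT CORT mice. In AS mice they were 26, 3, 3, 6 and 9 with vehicle and 9, 11, 13, 9 and 3 with CORT. Neither was tested.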
